A study of Mus musculus with 29 samples.

Results

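Axin2, Lef1, Tcf7, Nkd1, Sp5, Dkk1, Dkk3, Sfrp1, Sfrp2 and Apcdd1 are 10 genes of the Wnt pathway, chosen by name as transcriptional targets or antagonists of Wnt signalling. They are 10 of the 25239 gene rows in the count tables of the RNA libraries. All 10 were detected in each of the 8 libraries and all 10 passed the filter on low counts, as did 15383 genes in all. The libraries measured poly(A) RNA of mouse brain tissue at stage E11.5, and the study set these up to compare expression with and without particular enhancers. The 4 groups were wild-type forebrain, hs267-853 knockout forebrain, wild-type midbrain and hs654 knockout midbrain, with 2 replicates each. Each replicate was a pool of dissected tissue from several embryos, so the p-values measure the spread between pools. The forebrain genotype label carries a pair of enhancer numbers, and the labels do not say whether 1 or 2 elements were removed. Each knockout was measured in 1 tissue only, so knockout and tissue cannot be separated between the knockout groups. The removed elements are enhancers and not genes, and no gene row was used here to check the genotypes. Another 21 samples hold capture Hi-C data and were not analysed here.

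Canonical Wnt signalling starts when a secreted Wnt ligand binds a Frizzled receptor with its co-receptor Lrp5 or Lrp6, which lets β-catenin escape the destruction complex and act with TCF/LEF factors at target genes. Many targets feed back on the pathway: some act inside the cell, some at the membrane, and some are secreted and block ligands or co-receptors. In the embryonic brain, Wnt signalling takes part in patterning along the head-to-tail axis, in growth of the dorsal midline and in the organizer at the midbrain-hindbrain boundary.

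The 250 bases before the annotated start of Sp5 and of Dkk1 are shown because CTTTGA, the core letters that TCF/LEF factors bind at many targets, was found there. Of the members, only Sp5, Dkk1 and Lef1 have a window in the RefSeq table at the outer end of the annotated gene, so upstream of the other 7 genes was not searched. The sequences are those of RefSeq, build GRCm38.p6, read 5′ to 3′ along the strand of the gene. Capitals mark CTTTGA on the gene's strand, or TCAAAG where the core lies on the opposite strand. The Sp5 sequence is chr2:70474673-70474922 (plus strand) and the Dkk1 sequence is chr19:30549497-30549746 (minus strand).
Sp5: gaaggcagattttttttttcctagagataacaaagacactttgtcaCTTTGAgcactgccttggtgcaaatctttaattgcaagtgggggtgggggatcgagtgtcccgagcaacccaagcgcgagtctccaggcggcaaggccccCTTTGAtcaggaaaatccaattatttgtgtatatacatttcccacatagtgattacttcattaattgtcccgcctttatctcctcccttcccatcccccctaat
Dkk1: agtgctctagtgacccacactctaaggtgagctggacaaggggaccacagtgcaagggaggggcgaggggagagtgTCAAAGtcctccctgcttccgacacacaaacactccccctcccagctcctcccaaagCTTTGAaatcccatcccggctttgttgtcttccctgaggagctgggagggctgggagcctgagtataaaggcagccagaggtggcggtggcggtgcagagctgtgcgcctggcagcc

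Upstream of Sp5, the core stood on the gene's strand at positions -204 to -199 and -104 to -99, counted from the start, and the nearer match continued into the 7-base form CTTTGAT. Upstream of Dkk1, it stood on the opposite strand at -174 to -169 and on the gene's strand at -117 to -112. Over all 32851 promoter windows of 300 bases in the RefSeq table, 16.0% held CTTTGA, 3.73% held CTTTGAT, which contains the core, and 35.7% held the GC box GGGCGG, each searched on both strands. Windows were given for 7 of the 10 genes, 11 windows in all, and none for Apcdd1, Dkk3 or Sfrp1. The windows of Axin2 and Tcf7 and 3 of the 4 windows of Lef1 held GC boxes and no core, the other Lef1 window held 2 cores, and those of Nkd1 and Sfrp2 held neither. The windows of Axin2, Nkd1, Tcf7 and Sfrp2 and 3 of the 4 of Lef1, the one with cores among them, belong to starts inside the annotated gene span. A match is a description of letters in these windows only.

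Of the 10 genes, 2 differed clearly between the tissues in wild type and between the knockout groups, where tissue and deletion differ together. Sfrp1, which encodes a secreted antagonist that binds Wnt ligands, was 4.89-fold higher in wild-type forebrain than in wild-type midbrain, and Apcdd1, which encodes a membrane antagonist that binds Wnt ligands and Lrp5, was 2.69-fold lower. Between their lowest and highest libraries, the targets Axin2, Nkd1, Lef1 and Tcf7 varied by 1.25-fold to 1.53-fold and the target Sp5, called between the wild-type tissues, by 1.67-fold. No member passed the threshold, an adjusted p of 0.05, in either knockout. Apcdd1 and Dkk1 had the lowest unadjusted p or the largest fold in the knockout forebrain, and neither was called.

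**Figure D1:**
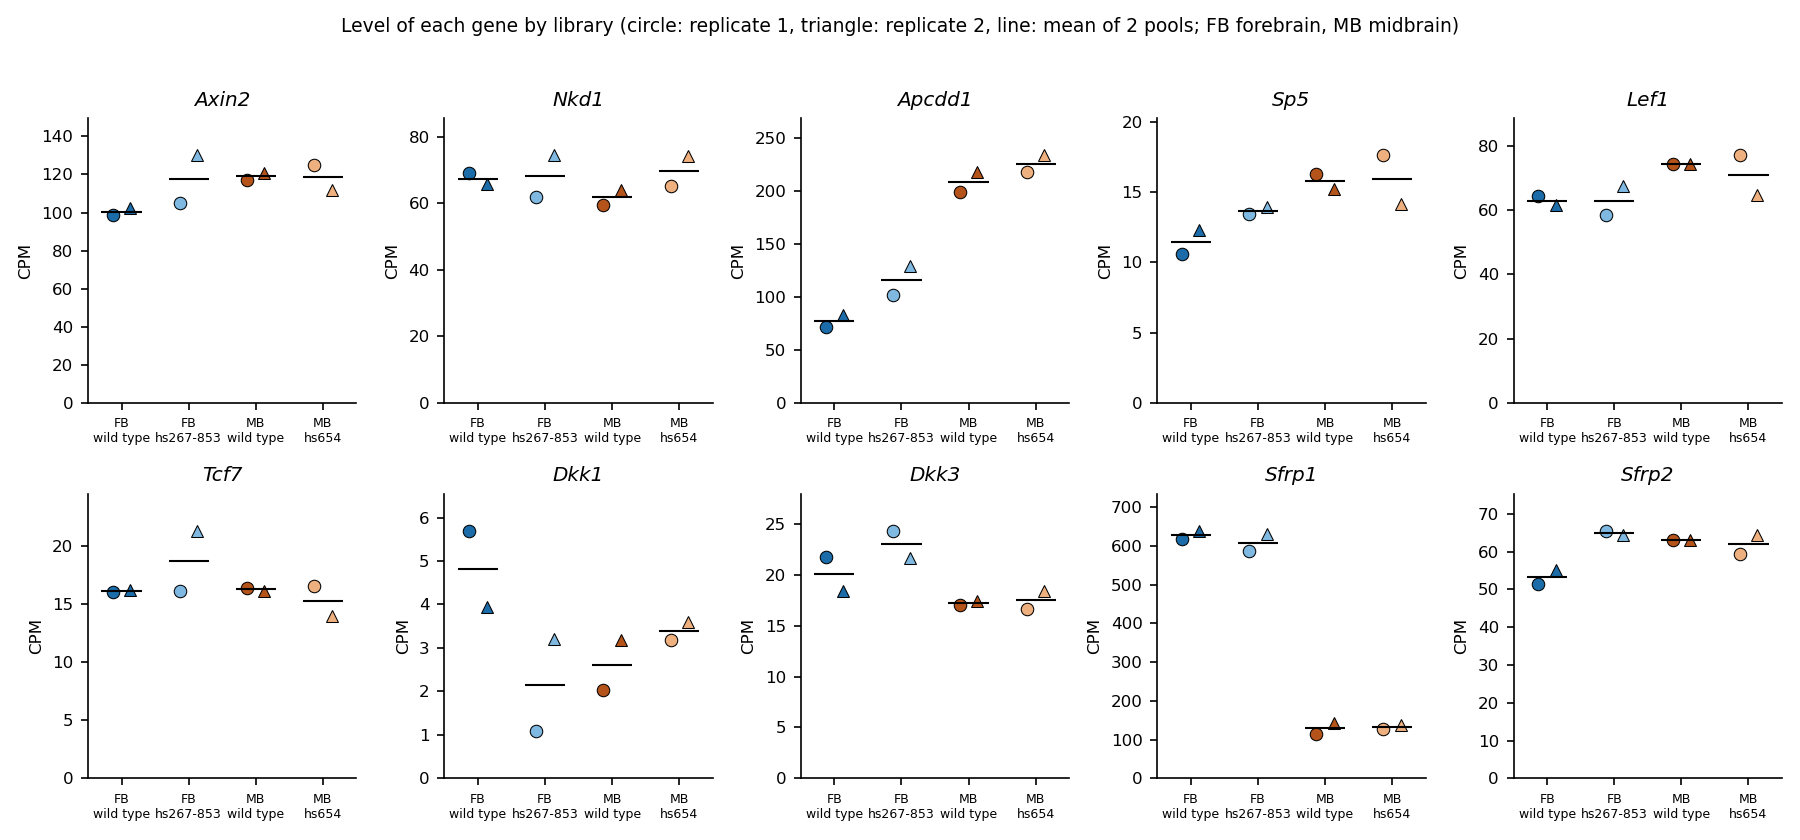
Level in CPM (linear axes from 0) of the 10 genes in each of the 8 libraries, 1 panel per gene; symbols are single pools and lines are means of 2 pools. Sfrp1 sits between 587 and 639 in all 4 forebrain libraries and between 113 and 144 in all 4 midbrain libraries, while Apcdd1 runs from 71.8 to 129 in forebrain and from 199 to 234 in midbrain.

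Levels are given in CPM, counts scaled to a common library size, with replicates 1 and 2 in that order. The scale does not account for transcript length, so levels were not compared between genes. Library totals ran from 9051632 to 18024406 counts in genes, and 3 counts corresponded to between 0.170 and 0.327 CPM. The tissue labels matched the forebrain regional markers and, apart from Fgf8, the midbrain and isthmus markers. Fgf8 averaged 7.03 CPM in wild-type forebrain against 4.88 in wild-type midbrain, and was not called. In the knockouts it was 8.75 in forebrain against 3.77 in midbrain, and was called higher. The other 8 midbrain and isthmus genes were called lower in forebrain in both comparisons. Summed CPM of 9 forebrain regional genes was 1281 to 1463 in forebrain and 181 to 199 in midbrain. That of 9 midbrain and isthmus genes was 64.3 to 95.8 in forebrain and 553 to 591 in midbrain. That of 6 diencephalic genes was 38.8 to 58.2 in forebrain and 221 to 239 in midbrain. All 6 were lower in wild-type forebrain by the test, and the part of this in the tissue differences was not tested. In bulk tissue, fewer cells of a type and less RNA per cell cannot be told apart. Summed CPM of 9 neuron markers was 1457 to 2049 in forebrain and 3147 to 3564 in midbrain, all 9 lower in forebrain by the test, and the part of this in the tissue differences was not tested.

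Axin2 and Nkd1 encode intracellular feedback inhibitors, Axin2 as a scaffold of the destruction complex and Nkd1 as a partner of Dishevelled. Axin2 lies at chr11:108917828-108950783 and Nkd1 at chr8:88521342-88594887 (GRCm38.p6). Axin2 was measured at 98.6 and 102 CPM in wild-type forebrain, 105 and 130 in knockout forebrain, 117 and 121 in wild-type midbrain, and 125 and 112 in knockout midbrain. The wild-type forebrain pools lay below all other pools, and the other 3 groups overlapped. The wild-type difference, forebrain minus midbrain, was -0.24 (log2, SE 0.0923), with an adjusted p of 0.0634 by the quasi-likelihood test of edgeR (Benjamini-Hochberg adjusted, as everywhere below). Nkd1 was measured at 69.1 and 65.9 CPM in wild-type forebrain, 61.9 and 74.5 in knockout forebrain, 59.4 and 64.2 in wild-type midbrain, and 65.3 and 74.1 in knockout midbrain. Both wild-type midbrain pools stood below both wild-type forebrain pools, and the knockout pools of the tissues overlapped. The wild-type tissue difference of 0.13 (SE 0.0980) had an adjusted p of 0.360.

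Apcdd1, at chr18:62922327-62953815, encodes the membrane antagonist of the set. It was measured at 71.8 and 83.4 CPM in wild-type forebrain, 102 and 129 in knockout forebrain, 199 and 218 in wild-type midbrain, and 218 and 234 in knockout midbrain. The 4 midbrain pools lay above the 4 forebrain pools without overlap, and within forebrain both knockout pools lay above both wild-type pools. In wild type the mean was 77.6 ± 8.22 (SD, n = 2) in forebrain and 209 ± 13.3 in midbrain, 2.69-fold lower in forebrain (log2 -1.43, SE 0.105, edgeR adjusted p = 4.35e-07). In the knockouts the gap was 1.96-fold (log2 -0.97, SE 0.103, adjusted p = 1.42e-05).

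Sp5, Lef1 and Tcf7 encode transcription factors that are both targets and effectors: Lef1 and Tcf7 bind β-catenin, and Sp5 is an Sp-family factor that acts at many of the same targets. They lie at chr2:70474923-70477726 (Sp5), chr3:131110297-131224357 (Lef1) and chr11:52246527-52283383 (Tcf7). Sp5 was measured at 10.6 and 12.3 CPM in wild-type forebrain, 13.4 and 13.9 in knockout forebrain, 16.3 and 15.2 in wild-type midbrain, and 17.6 and 14.2 in knockout midbrain. All 4 forebrain pools lay below all 4 midbrain pools, with the knockout forebrain nearest to midbrain. In wild type Sp5 was 1.38-fold lower in forebrain (log2 -0.47, SE 0.152, edgeR adjusted p = 0.0345), while the knockout difference of -0.22 (SE 0.152) had an adjusted p of 0.300. The difference in wild type minus that in the knockouts was -0.24 (log2, edgeR adjusted p = 0.996), so the 2 were not shown to differ. The wild-type call was lost when any 1 of the 4 wild-type libraries was left out (adjusted p from 0.0543 to 0.208) and in DESeq2 (0.0927).

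Lef1 was measured at 64.3 and 61.5 CPM in wild-type forebrain, 58.3 and 67.6 in knockout forebrain, 74.3 and 74.2 in wild-type midbrain, and 77.0 and 64.6 in knockout midbrain. The wild-type tissues did not overlap and the knockout tissues did, with an adjusted p of 0.0755 for the wild-type difference of -0.24 (edgeR, SE 0.0949). Tcf7 was measured at 16.1 and 16.2 CPM in wild-type forebrain, 16.2 and 21.3 in knockout forebrain, 16.4 and 16.1 in wild-type midbrain, and 16.6 and 14.0 in knockout midbrain. Apart from the second knockout forebrain pool, the Tcf7 values lay within about 3 CPM of one another. Its wild-type tissue difference was -0.011, with a 95% interval of -0.35 to 0.32. The annotated span of Tcf7 overlaps that of Skp1, and whether the counting used strand is not given in the sources used here.

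Dkk1, Dkk3, Sfrp1 and Sfrp2 encode secreted proteins: Dkk1 blocks the co-receptors Lrp5 and Lrp6, Dkk3 is a relative whose action on Wnt signalling is less clear, and the Sfrp proteins carry a Frizzled-like domain that binds Wnt ligands. Their genes lie at chr19:30545876-30549496 (Dkk1), chr7:112116019-112159482 (Dkk3), chr8:23411383-23449632 (Sfrp1) and chr3:83765750-83774314 (Sfrp2). Sfrp1 was measured at 618 and 639 CPM in wild-type forebrain, 587 and 629 in knockout forebrain, 113 and 144 in wild-type midbrain, and 126 and 137 in knockout midbrain. The lowest forebrain pool was thus far above the highest midbrain pool, and within each tissue the genotypes overlapped. The wild-type mean was 628 ± 14.8 (SD, n = 2) in forebrain and 129 ± 21.7 in midbrain, 4.89-fold higher in forebrain (95% interval 4.27 to 5.61, log2 2.29, SE 0.0913, edgeR adjusted p = 1.99e-09). In the knockouts it was 4.63-fold higher (log2 2.21, SE 0.0919, adjusted p = 2.72e-09).

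Sfrp2 was measured at 51.5 and 55.2 CPM in wild-type forebrain, 65.6 and 64.5 in knockout forebrain, 63.1 and 63.1 in wild-type midbrain, and 59.5 and 64.5 in knockout midbrain. The wild-type forebrain stood alone below the other 3 groups. Its wild-type difference of -0.24 (SE 0.0780) was 1.18-fold, with an edgeR adjusted p of 0.0320, and the difference in knockouts was 0.071 (SE 0.0780), with an adjusted p of 0.541. The difference in wild type minus that in the knockouts was -0.31 (log2, adjusted p = 0.996), so the 2 were not shown to differ. The wild-type call was lost when any 1 of the 4 wild-type libraries was left out (adjusted p from 0.0571 to 0.196) and in DESeq2 (0.0894).

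Dkk3 was measured at 21.7 and 18.4 CPM in wild-type forebrain, 24.3 and 21.7 in knockout forebrain, 17.1 and 17.4 in wild-type midbrain, and 16.7 and 18.4 in knockout midbrain. The forebrain pools reached down to the highest midbrain pool, and the highest value was that of the first knockout forebrain pool. Its tissue difference was 0.22 (SE 0.131, edgeR adjusted p = 0.234) in wild type and 0.39 (SE 0.133, adjusted p = 0.0403) in the knockouts, a 1.31-fold higher level in forebrain. The difference in wild type minus that in the knockouts was -0.17 (log2, edgeR adjusted p = 0.996), so the 2 were not shown to differ. The knockout call was lost without the first knockout forebrain pool and without any 1 of the 4 midbrain pools (adjusted p from 0.0518 to 0.264), and in DESeq2 (0.124).

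Dkk1 was measured at 5.70 and 3.95 CPM in wild-type forebrain, 1.08 and 3.21 in knockout forebrain, 2.02 and 3.19 in wild-type midbrain, and 3.18 and 3.60 in knockout midbrain. These rest on 84 and 51 counts, 19 and 49 counts, 32 and 40 counts, and 37 and 33 counts in the same order, the fewest of the 10 genes. The wild-type forebrain pools were the 2 highest, and the first knockout forebrain pool the lowest. In wild type, the tissue difference of 0.91 (SE 0.420) had an adjusted p of 0.127.

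Counted over the members, 4 of 10 passed the threshold between wild-type tissues: Sfrp1 higher in forebrain, and Apcdd1, Sp5 and Sfrp2 lower. Among all 15383 genes tested, 29.6% passed (14.3% higher, 15.3% lower), and 4 of 10 members is not far from that share. The member count was 2 without any 1 of the wild-type libraries and 7 without either knockout forebrain library, where Axin2, Lef1 and Dkk1 were called as well. The median log2 difference of the members was -0.13 against 0.0012 for all genes, and the median size without sign was 0.24 against 0.23. The libraries of the wild-type tissues did not overlap for 9 of 10 members, against 65.9% of all genes. In the knockouts 3 of 10 members passed (Sfrp1, Apcdd1 and Dkk3), against 29.4% of all genes, and 5 of 10 did not overlap, against 64.4%. Sfrp1 and Apcdd1 were called in the same direction in wild type and in the knockouts. They are 50% of the members called in wild type and 66.7% of those called in the knockouts, comparisons that share no library. Among all genes, 3363 were called in the same direction in both, 73.9% of the 4548 calls in wild type and 74.4% of the 4523 in the knockouts. Over all 4 forebrain against all 4 midbrain libraries, Sfrp1, Apcdd1 and Sp5 did not overlap, 3 of 10, against 40.9% of all genes.

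**Figure D2:**
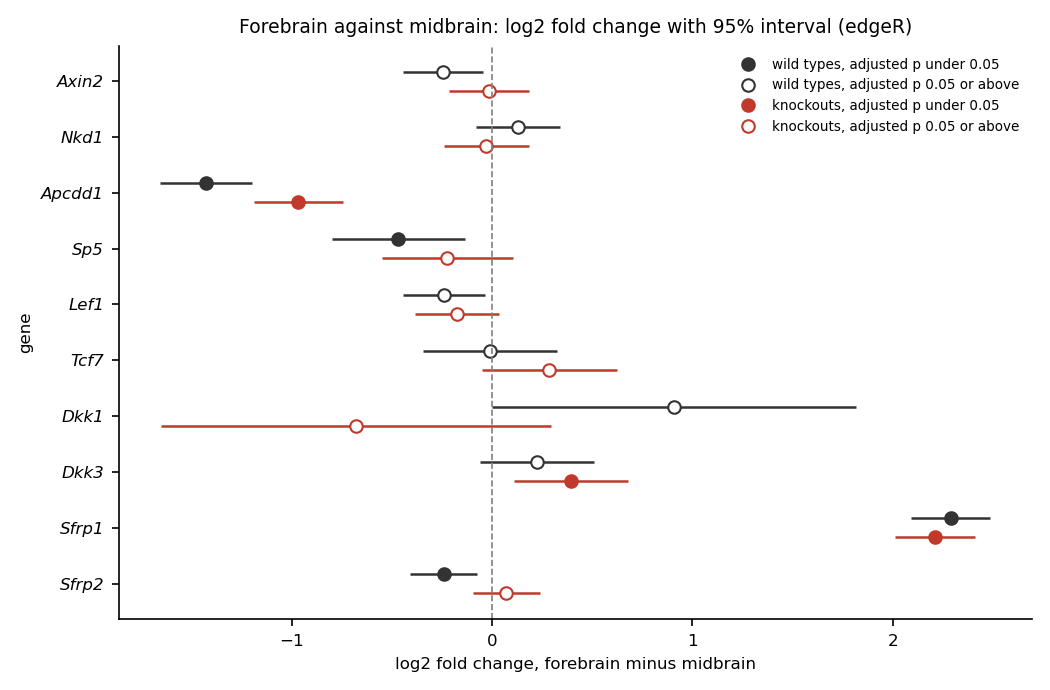
Log2 difference, forebrain minus midbrain, of the 10 genes in wild type and in the knockouts, with 95% intervals from the edgeR fit; 0 is no difference. Sfrp1 (2.29 and 2.21) and Apcdd1 (-1.43 and -0.97) stand apart from 0 in both comparisons, and no other gene was called in both. In the knockouts, tissue and deletion differ together.

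Genes at each step of the pathway, from ligands to nuclear factors, were called between the wild-type tissues. Of 94 other tested genes in 7 lists fixed by role, 63 passed the threshold in wild type, 40 higher and 23 lower in forebrain, which is 67% against the 29.6% of all genes. These lists were chosen with earlier results of these data known, so the count is a description. In the knockouts 57 of the 94 passed.

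Among Wnt ligands, 7 of 17 tested were higher and 3 lower in forebrain, with a median log2 difference of 0.77. Wnt8b, expressed along the dorsal midline of the forebrain, averaged 113 ± 15.8 CPM (SD, n = 2) in forebrain and 20.5 ± 11.8 in midbrain (log2 2.49, SE 0.251). Wnt1, the ligand of the midbrain and its boundary with the hindbrain, averaged 0.552 ± 0.204 and 16.1 ± 1.00 (log2 -4.87, SE 0.267). Wnt3 was lower in forebrain too, at 4.94 ± 1.33 against 26.1 ± 4.89. Wnt6, a ligand of surface ectoderm, was 10.9 ± 1.47 in forebrain against 0.875 ± 0.343, and summed CPM of 7 surface epithelium markers was 41.5 and 60.0 in wild-type forebrain against 9.26 and 10.6 in wild-type midbrain; the part of that tissue in the difference was not tested.

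Of 16 Frizzled and co-receptor genes, 12 were higher and 2 lower in forebrain, with a median of 0.61. Fzd8 averaged 129 ± 13.5 CPM in forebrain against 18.6 ± 1.74 (log2 2.80, SE 0.133), and Ror2, a receptor for non-canonical Wnt ligands, 60.1 ± 1.28 against 19.3 ± 4.56. Those lower in forebrain were Fzd10, at 30.4 ± 1.37 against 186 ± 10.4, and Fzd3, at 400 ± 31.0 against 581 ± 22.8. In the R-spondin module, which amplifies Wnt signals, 3 of 7 tested were higher and 2 lower. Its ligands Rspo1 (74.4 ± 6.65 against 18.2 ± 4.68 CPM) and Rspo3 (59.3 ± 1.67 against 18.6 ± 0.384) were higher in forebrain, whereas its receptors Lgr5 (0.445 ± 0.246 against 10.5 ± 0.824) and Lgr4 (28.3 ± 2.08 against 64.6 ± 1.91) were lower.

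Among cytoplasmic transducers, 2 of 13 were higher and 5 lower in forebrain, with a median of -0.14. Apc2 (log2 -0.69, SE 0.121) and Apc (-0.47, SE 0.0564), scaffolds of the destruction complex, were lower, and Axin1 (0.29, SE 0.0721) and Dvl2 (0.21, SE 0.0721) were higher. Among 11 other TCF factors and corepressors, 4 were higher and 3 lower. Tcf7l1, which mostly represses targets, averaged 74.4 ± 1.58 CPM in forebrain against 43.2 ± 3.55, and the corepressor Tle1 174.9 ± 4.12 against 104 ± 4.48. Tcf7l2 was 39.1 ± 4.90 against 258 ± 25.4 (log2 -2.73, SE 0.143), and Tle2 was lower as well (-0.70, SE 0.228). Lef1 and Tcf7, the family members among the 10 genes, were called neither in wild type nor in the knockouts.

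Among other antagonists, 6 of 15 tested were higher and 2 lower in forebrain. Shisa2, an endoplasmic reticulum protein that holds back Frizzled receptors, averaged 146 ± 15.6 CPM in forebrain against 16.7 ± 4.20 (log2 3.14, SE 0.145), while its relative Shisa3 was 1.00 ± 0.553 against 59.9 ± 5.09 (log2 -5.92, SE 0.227). Sostdc1 was 5.14 ± 2.23 against 0.509 ± 0.183, and Draxin, a secreted antagonist that also guides axons, 33.5 ± 1.02 against 153 ± 6.25 (log2 -2.19, SE 0.0801). Of 15 other target genes, 6 were higher and 6 lower. Sp8, a relative of Sp5, was higher in forebrain at 63.9 ± 4.24 against 17.7 ± 2.16, opposite in direction to Sp5, and Msx2 was 35.5 ± 11.0 against 11.7 ± 2.32. Lmx1a, a roof plate and midbrain dopaminergic factor, was 15.6 ± 1.60 against 41.4 ± 9.39.

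**Figure D3:**
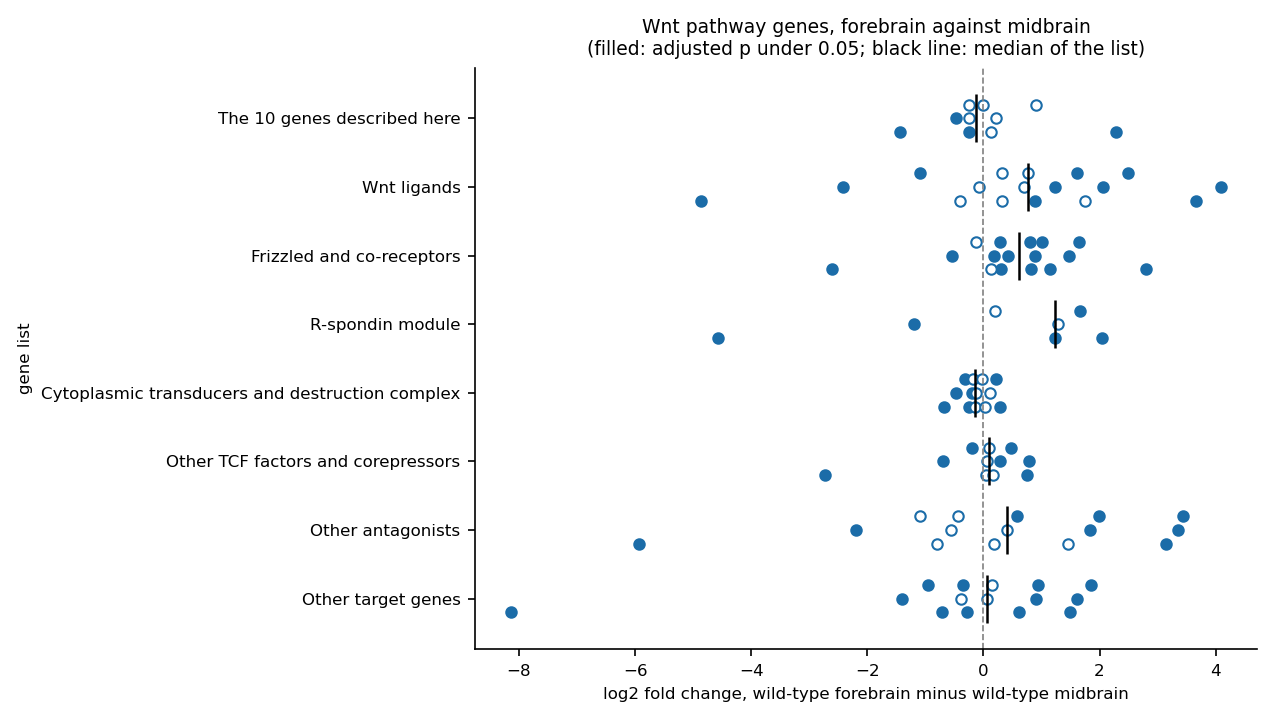
Log2 difference, forebrain minus midbrain in wild type, of every tested gene in the 7 Wnt pathway lists and of the 10 members; each point is 1 gene, filled points passed the edgeR threshold, and black lines are list medians. Of 16 Frizzled and co-receptor genes, 12 filled points lie above 0 and 2 below, and the median of the 10 members lies at -0.13.

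In the hs267-853 knockout forebrain, Apcdd1 stood at 116 ± 19.5 CPM (SD, n = 2) against 77.6 ± 8.22 in wild type, a ratio of 1.49 with a 95% interval of 1.27 to 1.75 (log2 0.57, SE 0.106). Its p was the rank 8 of all genes, and its edgeR adjusted p was 0.237. Sfrp2 was 65.0 ± 0.725 against 53.4 ± 2.65 (ratio 1.22, log2 0.29, SE 0.0772, adjusted p = 0.733), and Axin2 was 118 ± 17.6 against 100 ± 2.67 (ratio 1.17, log2 0.23, SE 0.0919, adjusted p = 0.984). Dkk1 was 2.14 ± 1.51 against 4.82 ± 1.24, 2.29-fold lower by ratio (log2 -1.20, SE 0.423, adjusted p = 0.984). For each of these genes both knockout pools lay on the same side of both wild-type pools, yet none passed the threshold.

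None of the other members had an unadjusted p under 0.05. Sp5 (log2 0.26, 95% interval -0.069 to 0.59) had both knockout pools above both wild-type pools. Tcf7 (0.21, -0.12 to 0.54), Dkk3 (0.20, -0.079 to 0.47), Nkd1 (0.013, -0.20 to 0.22), Lef1 (-0.00084, -0.21 to 0.20) and Sfrp1 (-0.048, -0.23 to 0.14) overlapped between genotypes. For Sfrp1, the member with the largest tissue difference in wild type, the knockout and wild-type means were 608 ± 30.1 and 628 ± 14.8 CPM (SD, n = 2).

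No member was called in the knockout forebrain, against 0.013% of all genes (2 genes), and 4 of 10 had an unadjusted p under 0.05 (Apcdd1, Sfrp2 and Axin2 higher, Dkk1 lower), against 4.78% of all genes. The groups did not overlap for 5 of 10, against 31.1%. The median log2 difference of the members was 0.20, against 0.0078 for all genes. Because the members were chosen with results of these data known, these counts describe the members and test nothing.

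Markers of other regions and tissues varied among the same 4 forebrain pools. Summed CPM of 6 diencephalic genes was 38.8 and 42.5 in wild type and 53.0 and 58.2 in the knockout. Of these, 3 (Barhl2, Otp and Foxb1) were higher in both knockout pools and 3 overlapped, with only Irx3 lower by log2 difference (-0.25). None was called, and 2643 of all 15383 genes were higher in both knockout pools. Summed CPM of 9 midbrain and isthmus genes was 64.3 and 75.0 against 85.6 and 95.8, most of it Otx2, which forebrain also expresses. En2 and Foxa2 were at 0 in all 4 pools. Apcdd1 ordered the 4 pools as both sums did, and its level is higher in midbrain. Among the single genes of the diencephalic and the midbrain and isthmus lists, only Foxb1 and Otx2 kept that order. Of 7 roof plate and cortical hem genes, a dorsal region rich in Wnt ligands, 3 (Lmx1a, Bmp6 and Ttr) were higher in both knockout pools. The other 4 overlapped and none was called. By log2 difference 4 of the 7 lay above 0 and 3 below, with Msx1 the lowest (-0.48). Summed CPM of the 7 was 218 and 188 in wild type and 147 and 224 in the knockout. Summed CPM of 10 mesenchyme and meninges markers was 2230 and 1780 in wild type and 1277 and 1954 in the knockout. All 10 log2 differences were below 0, with a median of -0.31 and none called. Only 3 of the 10 were lower in both knockout pools, and 7 overlapped. Summed CPM of 7 surface epithelium markers was 60.0 and 41.5 against 12.4 and 62.2, and all 7 overlapped. Dkk1 was lowest in the first knockout pool, the library lowest in the mesenchyme, surface epithelium and roof plate sums. In that pool Msx1, the largest part of the roof plate sum, was 58.5 CPM. It was 128 and 106 in wild type and 110 in the second knockout pool. Gdf7 and Bmp7 were lowest there too, and the other roof plate genes were not. The second knockout pool had the highest surface epithelium sum, yet its Dkk1 (3.21) lay below both wild-type pools. The part of these markers in the differences of Apcdd1 and Dkk1 was not tested.

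**Figure D4:**
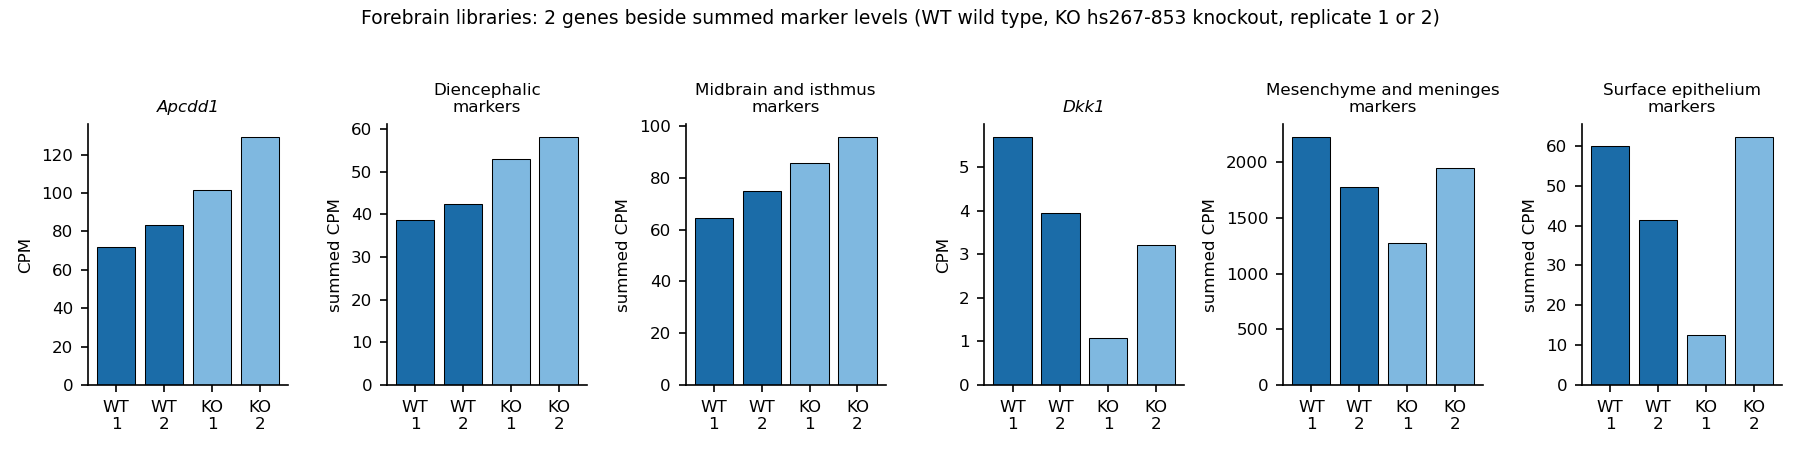
Summed CPM of marker lists in the 4 forebrain libraries, beside the CPM of Apcdd1 and Dkk1; each bar is 1 pool, on axes that start at 0. Apcdd1 runs from 71.8 to 129 in the same order as the diencephalic sum (38.8 to 58.2), an order kept by Foxb1 alone among the diencephalic genes. Dkk1 is lowest (1.08) in the pool with the lowest mesenchyme and surface epithelium sums (1277 and 12.4). In the second knockout pool Dkk1 (3.21) lies below both wild-type pools, while the surface epithelium sum (62.2) is the highest.

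Single pools carried much of both values. Without the first knockout pool the Apcdd1 difference was 0.74 (edgeR adjusted p = 0.00211), and without the second it was 0.39 (adjusted p = 0.0373), each past the threshold. Without the first or the second wild-type pool it was 0.47 (adjusted p = 0.993) or 0.69 (adjusted p = 0.188). With the first knockout pool left out, Dkk1 was -0.59 (adjusted p = 0.928), and with the second left out it was -2.16 (adjusted p = 0.0195). DESeq2 gave Apcdd1 an adjusted p of 0.000812 at the same log2 difference of 0.57. Over all alternatives tried, the adjusted p of Apcdd1 ran from 1.13e-11 to 1.00, always with the knockout higher.

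In the hs654 knockout midbrain, no member passed the threshold, and for 9 of 10 the knockout and wild-type pools overlapped. The largest difference was that of Dkk1, 3.39 ± 0.298 CPM against 2.61 ± 0.827 (log2 0.39, 95% interval -0.58 to 1.36). Nkd1 was 69.7 ± 6.27 against 61.8 ± 3.36 (0.17, -0.044 to 0.39), and Apcdd1 was 226 ± 11.1 against 209 ± 13.3 (0.11, -0.11 to 0.33). Sfrp1 was 131 ± 7.33 against 129 ± 21.7 (0.033, -0.17 to 0.23), Axin2 -0.0019 (-0.20 to 0.20) and Sfrp2 -0.027 (-0.20 to 0.14) on the log2 scale, and the other 4 lay between -0.086 (Tcf7) and 0.024 (Dkk3). None of the 10 was called, against 0% of all genes (0 genes) by edgeR, and DESeq2 and limma-voom called 0 genes too. None of the 10 had an unadjusted p under 0.05, against 3.96% of all genes (609 genes), and 1 of 10 (Nkd1) did not overlap, against 36.7%. Their median size without sign was 0.049, against 0.096 for all genes. The first wild-type midbrain pool held 6946 summed CPM of 8 erythroid markers, against 3437 to 3898 in the other 3 midbrain pools, and the part of that in these values was not tested.

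**Figure D5:**
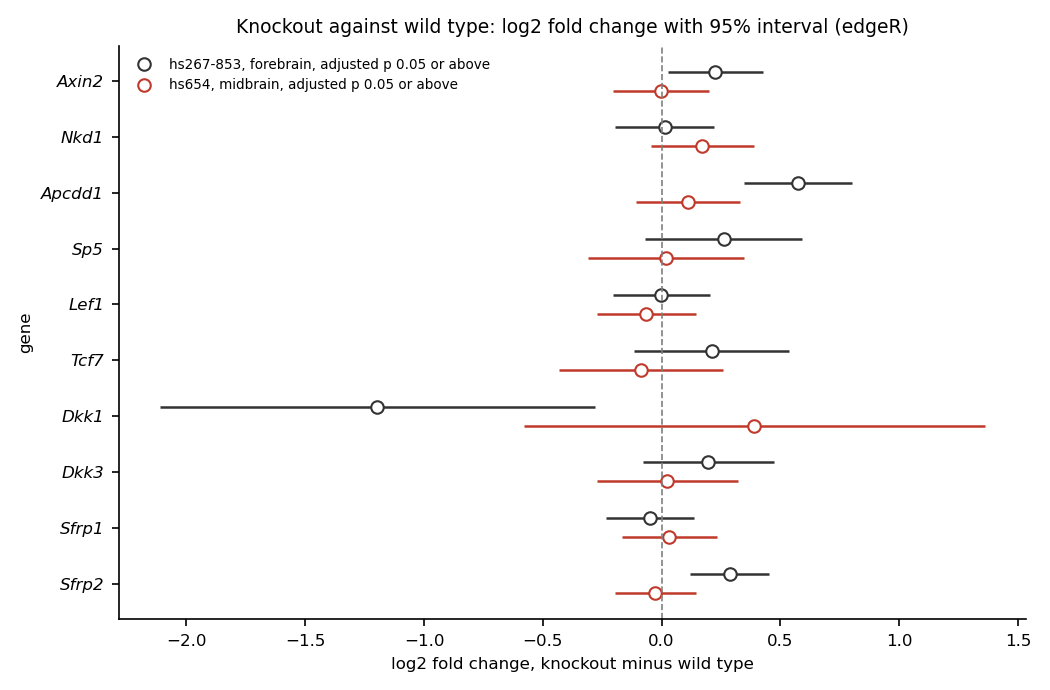
Log2 difference, knockout minus wild type, of the 10 genes in forebrain (hs267-853) and midbrain (hs654), with 95% intervals from the edgeR fit. In forebrain Apcdd1 (0.57) and Dkk1 (-1.20) lie farthest from 0, and in midbrain every interval spans 0.

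Whether the 2 knockout effects differed was tested directly, as the midbrain effect minus the forebrain effect. The difference was -0.46 (95% interval -0.78 to -0.15) for Apcdd1, -0.31 (-0.55 to -0.075) for Sfrp2 and 1.59 (0.25 to 2.92) for Dkk1, all with an edgeR adjusted p of 0.996. No member was called, against 0.0065% of all genes (1 gene), and 3 of 10 had an unadjusted p under 0.05, against 4.02%. Knockout and tissue differ together in this contrast, so the 2 cannot be told apart.

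The genes most alike in pattern were sought for each member among 14319 tested genes with a mean of at least 1 CPM, as the smallest root mean square distance between log2 CPM centred on each gene's own mean over the 8 libraries. Nearest to Sfrp1 were Id4 (distance 0.106, Pearson r = 0.996) and Lhx2 (0.144, r = 0.992), a transcription factor of the forebrain. Nearest to Apcdd1 were Fcgrt (0.106) and Slit2 (0.124), a secreted guidance protein, and nearest to Dkk1 were Tnc (0.262), an extracellular matrix protein, and Gask1b (0.269). The libraries and their 2 tissues are shared by every such pair. For the other 7 members, whose lowest and highest libraries differed by 1.25-fold to 1.67-fold, the nearest genes lay at distances of 0.0322 to 0.0713: Zmym5 and Gstm4 for Axin2, Irf5 and Tsku for Nkd1, Ppp1r9a and Dnajc21 for Sp5, Gm44502 and Gigyf1 for Lef1, Homez and Spata5l1 for Tcf7, Gm12992 and Dhodh for Dkk3, and Arfgef2 and Dhrsx for Sfrp2.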

How the data were processed

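Poly(A) RNA of 8 pools of embryonic mouse brain tissue (4 groups of 2, grouped by tissue, genotype and replicate in the sample titles) was sequenced. The authors deposited raw counts per gene symbol, 1 table per library, with no normalization. STAR, HTSeq and DESeq2 and the build mm10 are named, per the submitters' processing notes, without versions or roles; the annotation and strand setting are not given in the sources used here. The 5 rows that name no gene were left out of library sizes and tests: no feature held 55.4% to 58.9%, ambiguous positions 0.431% to 0.488% and genes 40.7% to 44.1% of the counts in these 3 classes.

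From these counts, edgeR 4.0.16 (R 4.3.3) gave the fold changes. Low genes were dropped by filterByExpr, leaving 15383. TMM gave scaling factors of 0.978 to 1.01. All 8 libraries entered 1 quasi-likelihood fit with 4 group means (prior degrees of freedom 8.75, biological coefficient of variation 7.62%). Two-sided p-values were adjusted over all tested genes (Benjamini-Hochberg, threshold 0.05). CPM uses scaled library sizes. Standard errors are the log2 fold change over the root of F, and 95% intervals follow from them. Patterns were compared on log2 CPM with a prior count of 2. As a check of the code, the fit was run on simulated counts with equal spread for all genes and no tissue difference. That run did not measure power or error rates on the real data. Totals were 9051632 to 18024406 counts per library. Replicate pools differed by more than counting error (chi-square per degree of freedom 3.75 to 7.74), and the level of 3 counts covers counting error only.

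The 10 members and all gene lists were chosen with earlier results of these data known. All members were named. From each other Wnt list, the text names up to 2 called genes most raised and up to 2 most lowered in forebrain against midbrain of wild type, provided their mean level reached 1 CPM, and for each member its 2 nearest genes in pattern; 1 gene that this rule names is not reported here. Alternatives were RLE scaling, no filter, DESeq2 1.42.0, limma-voom (limma 3.58.1), a filter at a mean of 50 counts, leaving out each library, a replicate block, and a fit to only the groups compared. Promoter windows and gene positions came from RefSeq tables of GRCm38.p6, the assembly that mm10 names.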

Additional observations from a re-analysis of the deposited data

How the results depend on the processing

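Of 745 values recomputed for single members, 670 kept their direction and their side of the threshold, 24 passed it newly, 19 lost it and 32 changed sign. Members called between wild-type tissues were 4, but 7 with no filter, 7 with only the groups compared, 2 in DESeq2 and 2 to 7 when 1 library was left out. In the forebrain knockout the count was 0, but 2 with no filter (Apcdd1 and Dkk1), 1 in DESeq2 and 0 to 2 when 1 library was left out. In the difference of knockout effects it was 0, but 1 with no filter (Apcdd1, adjusted p = 0.00322). In the midbrain knockout it was 0 under every alternative run. Between knockout tissues it was 3 and ran from 2 to 4: Dkk3 lost its call in 8 of 15 alternatives, and Tcf7 and Dkk1 each gained one in 1. Over all genes, the calls in the forebrain knockout were 2, but 161 with no filter, 13 in DESeq2, 1 in limma-voom or with only the groups compared, and 1 to 209 with 1 library left out. In the midbrain knockout they were 0, but 22 with no filter, 1 with only the groups compared and 0 to 8 with 1 library left out. For the difference they were 1, but 111 with no filter, 4 in DESeq2 and 0 to 64. Between wild-type tissues, 4548 calls became 2816 to 5285. The cause of these changes was not tested.

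With the replicate block, 1 member was called in the forebrain knockout (Apcdd1, adjusted p = 0.0224) and 3 genes in all; it moved no other count of members. The correlation of replicate differences between groups ran from -0.0255 to 0.0670, so no pairing by number showed over all genes. The labels do not say whether same-numbered pools are related. A correlation over all genes can miss a shared factor that moves few genes. The midbrain knockout value of Axin2 was -0.0019 and turned to 0.0081 (RLE), 0.0079 (no filter), 0.0098 (mean of at least 50 counts), 0.0075 (DESeq2), 0.0012 (limma-voom), 0.00043 (only the groups compared) and 0.00028 (replicate block). A mean over wild type and knockouts, chosen after seeing the data, turned Tcf7 between tissues to 0.14, called Lef1 (-0.21) and Dkk3 (0.31) and lost Sfrp2 (-0.086).

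The other sign changes came with 1 library left out, all at values near 0. Between knockout tissues they were Axin2 (-0.17 to 0.13), Nkd1 (-0.16 to 0.10) and Sfrp2 (-0.0059 to 0.13). In the midbrain knockout they were Axin2 (-0.075 to 0.073), Sp5 (-0.14 to 0.16), Lef1 (-0.19 to 0.052), Tcf7 (-0.21 to 0.027), Dkk3 (-0.047 to 0.11), Sfrp1 (-0.13 to 0.21) and Sfrp2 (-0.085 to 0.042). In the forebrain knockout they were Nkd1 (-0.12 to 0.14), Lef1 (-0.11 to 0.10) and Sfrp1 (-0.099 to 0.0024), and in the difference Lef1 (-0.18 to 0.052) and Sfrp1 (-0.082 to 0.26). Depth limits Dkk1 most, at 19 to 84 counts per library; the filter at a mean of 50 counts removed it.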

Other observations

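Other genes of the pathway also had low unadjusted p-values in the hs267-853 knockout forebrain, and none was called. The Wnt lists were chosen with earlier results of these data known, so the counts describe them and test nothing. Of the 94 tested genes in the 7 other Wnt lists, 10 had an unadjusted p under 0.05, which is 10.6% against 4.78% of all genes, and none passed after edgeR's Benjamini-Hochberg adjustment. In wild type, 3 of the 10 were lower in forebrain than in midbrain, as Apcdd1 was, and 7 were higher. The 3 were Draxin, Wnt3 and Tcf7l2. Draxin, a secreted antagonist, averaged 43.9 ± 2.13 CPM (SD, n = 2) in the knockout forebrain and 33.5 ± 1.02 in wild type (log2 0.39, adjusted p = 0.296). The ligand Wnt3 averaged 9.68 ± 3.34 against 4.94 ± 1.33 (log2 0.97, adjusted p = 0.733) and the factor Tcf7l2 53.2 ± 14.0 against 39.1 ± 4.90 (log2 0.44, adjusted p = 0.963). Among the 7 higher in wild-type forebrain, 4 had the higher mean in the knockout. These were Rspo3 (76.6 ± 7.02 against 59.3 ± 1.67), Rspo2 (70.3 ± 3.20 against 51.4 ± 5.02), the ligand Wnt7b (219 ± 14.3 against 187 ± 4.08) and the corepressor Tle1 (200.0 ± 25.1 against 174.9 ± 4.12). The other 3 had the lower mean in the knockout: the receptor Fzd7 (67.2 ± 1.04 against 81.9 ± 1.24), Igfbp4 (225 ± 18.4 against 272 ± 16.3) and the target Msx1 (84.5 ± 36.8 against 117 ± 15.5). The pools of Msx1 overlapped, at 58.5 and 110 in the knockout against 128 and 106 in wild type. The adjusted p of these 7 ran from 0.582 to 0.984.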
